A study of Mus musculus with 6 samples.

Results

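The 10 genes described here are *Muc2*, *Agr2*, *Fcgbp*, *Clca1*, *Zg16*, *Tff3*, *Spink4*, *Spdef*, *Atoh1* and *Retnlb*, which encode the gel mucin, the mucus proteins and the lineage regulators of goblet cells. They were matched by gene symbol to the 17778 genes listed in the deposited expression table, and all 10 were found there. Colon RNA was sequenced from 3 obesity-prone (OP) and 3 obesity-resistant (OR) samples, each treated here as 1 mouse. All were wild-type C57BL/6J mice, male according to the methods, that had been fed a 60% fat high-fat diet for 16 weeks and were 21 weeks old. OP mice came from the 10 with the largest weight gain among 42 mice on this diet, and OR mice from the 10 with the smallest. How the 3 sequenced mice of each group were picked, and which stretch of colon was taken, is not given in the sources used here. P-values therefore measure the spread between these samples only.

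Goblet cells are the mucus-secreting cells of the intestinal epithelium. Their granules hold the mucin MUC2, which forms a disulphide-linked network after release and keeps bacteria away from the colon surface, and which is assembled in the endoplasmic reticulum with the help of the protein disulphide isomerase AGR2. The transcription factor ATOH1 directs crypt progenitors to the secretory lineages, and SPDEF acts downstream of it in the maturation of goblet cells. FCGBP, CLCA1 and ZG16 are abundant proteins of the colon mucus, TFF3 is a trefoil peptide of mucosal repair, SPINK4 is a small protein of the Kazal inhibitor family made by goblet cells, and RETNLB is a secreted antibacterial protein that depends on microbes and type II cytokines.

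Values are FPKM, fragments scaled by transcript length and by the number of mapped fragments, which allow levels to be set side by side between genes. Their totals lay between 585350 and 600028 in the 6 mice, and since read totals cannot be obtained from FPKM given to 2 decimals, depth and counting error are unknown. Equal totals did not make the samples alike. The median-of-ratios scaling factors ran from 0.80 in OP mouse 1 to 1.11 in OR mouse 1. The array weights of limma, lower where a mouse departs more from its group, ran from 0.33 in OP mouse 1 to 2.21 in OR mouse 3. Several samples stood apart in genes that do not belong to goblet cells. *Hoxb13*, a homeobox gene of the distal hindgut, had an FPKM of 46.9 in OP mouse 2, of 1.29 in OP mouse 1 and of 0.36 in OR mouse 3, and was listed at 0 in the other 3 mice. *Hoxd10* had 0.04 in OP mouse 2 and between 2.60 and 6.80 in the others. *Car1*, a carbonic anhydrase of absorptive colonocytes, had 14584 in OP mouse 1 and 15723 in OR mouse 2 but between 1054 and 6339 in the others. The comparison and the correlations below are therefore also given without single mice.

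The promoters of *Muc2*, *Agr2*, *Atoh1* and *Spdef* are shown because the levels of these genes moved together from mouse to mouse, as described after the values. They are 250 bases long, end just before the annotated start and are written 5′ to 3′ on the strand of the gene, from RefSeq on build GRCm38.p6, which is an older build than the one named in the study. They lie at chr7:141690090-141690339 on the plus strand for *Muc2*, chr12:35992675-35992924 on the plus strand for *Agr2*, chr6:64728875-64729124 on the plus strand for *Atoh1* and chr17:27728952-27729201 on the minus strand for *Spdef*. Capitals mark the E-box CAGCTG, a form bound by ATOH1, and GGAT, the core letters preferred by SPDEF, which appear as ATCC where they lie on the opposite strand.
Muc2: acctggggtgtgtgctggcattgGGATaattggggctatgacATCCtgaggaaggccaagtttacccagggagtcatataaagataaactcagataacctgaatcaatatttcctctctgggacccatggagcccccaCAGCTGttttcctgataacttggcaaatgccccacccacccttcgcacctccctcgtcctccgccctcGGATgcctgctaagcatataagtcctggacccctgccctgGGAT
Agr2: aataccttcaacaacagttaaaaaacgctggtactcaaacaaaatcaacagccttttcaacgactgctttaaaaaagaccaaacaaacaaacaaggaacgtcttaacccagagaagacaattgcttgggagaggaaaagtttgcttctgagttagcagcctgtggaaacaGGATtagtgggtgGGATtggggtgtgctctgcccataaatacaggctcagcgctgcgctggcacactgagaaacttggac
Atoh1: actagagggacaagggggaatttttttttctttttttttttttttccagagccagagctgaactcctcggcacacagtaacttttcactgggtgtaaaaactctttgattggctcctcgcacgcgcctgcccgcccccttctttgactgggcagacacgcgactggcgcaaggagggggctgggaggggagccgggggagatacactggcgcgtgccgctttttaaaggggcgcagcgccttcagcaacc
Spdef: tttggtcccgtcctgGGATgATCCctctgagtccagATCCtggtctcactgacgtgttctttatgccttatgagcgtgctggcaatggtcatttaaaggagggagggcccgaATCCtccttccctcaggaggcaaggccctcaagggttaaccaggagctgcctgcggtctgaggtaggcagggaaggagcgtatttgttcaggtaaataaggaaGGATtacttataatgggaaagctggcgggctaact

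The E-box CAGCTG was found in the *Muc2* window, from 112 to 107 bases before the start, and not in the windows of *Agr2*, *Atoh1* and *Spdef*, whereas 13.0% of the 32851 RefSeq promoter windows of this length held it. The letters GGAT were found 4 times in *Muc2*, 2 times in *Agr2*, 5 times in *Spdef* and 0 times in *Atoh1*, and 74.1% of all windows held them at least at 1 position. The forkhead motif TGTTTAC, searched on both strands as well and held by 3.17% of all windows, was found in 0 of the 5 windows available for these genes. *Fcgbp*, the fifth gene with a window, held CAGCTG at 1 position and GGAT at 2. No motif searched overlapped another. *Clca1*, *Zg16*, *Tff3*, *Spink4* and *Retnlb* had no entry in the promoter table used.

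All 10 genes were above 0 in every mouse and all 10 passed the filter, which asked for 0.5 FPKM or more in 3 or more mice. The highest mean level over the 6 mice was that of *Spink4*, with an FPKM of 1013 ± 832 (SD, n = 6), and *Zg16* followed with 882 ± 796 (SD, n = 6). *Agr2* had 645 ± 572, *Tff3* 603 ± 348 and *Muc2* 355 ± 336 (SD, n = 6 each). *Clca1* had 156 ± 104, *Retnlb* 126 ± 168 and *Fcgbp* 79.4 ± 60.6 (SD, n = 6 each). The regulators were the lowest, with 39.6 ± 33.5 for *Spdef* and 23.0 ± 19.9 for *Atoh1* (SD, n = 6 each). *Fcgbp* was above *Spdef* and *Spdef* above *Atoh1* in 6 of 6 mice, which gave an exact permutation p = 0.0312 (two-sided) for each, as low as 6 mice can give, and an adjusted p of 0.141 over the 9 neighbouring pairs of this order. In the other 7 pairs the higher gene was above the lower in 2 to 5 of the 6 mice, with exact permutation p-values from 0.0938 to 0.844. The order of neighbouring genes was thus not set apart beyond its spread. Together the 10 genes took 0.197% of the total FPKM in OP mouse 1 and 1.24% in OR mouse 3.

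*Muc2* stood at 17.6, 563 and 188 FPKM in OP mice 1, 2 and 3 and at 154, 276 and 933 in OR mice 1, 2 and 3. The lowest and the second highest of these values both belonged to OP mice, so the groups overlapped over nearly the whole range. The highest value was 53.1 times the lowest. *Agr2*, whose product folds MUC2, had 41.2, 1344 and 319 in OP mice against 261, 542 and 1366 in OR mice. The 6 mice stood in the same order for *Agr2* as for *Muc2*, and OP mouse 1 was again far below the rest. The ratio of *Muc2* to *Agr2* stayed between 0.419 and 0.683.

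*Atoh1* stood at 1.93, 24.5 and 14.6 FPKM in OP mice 1, 2 and 3 and at 15.6, 21.02 and 60.5 in the OR mice. *Spdef* had 3.41, 63.0 and 20.8 in OP mice against 33.1, 22.2 and 94.9 in OR mice. For both regulators OP mouse 1 was the lowest and OR mouse 3 the highest, and the other 4 mice lay between them with the groups mixed. The highest value was 31.3 times the lowest for *Atoh1* and 27.8 times for *Spdef*.

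*Zg16*, whose product binds bacterial cell walls in the mucus, stood at 236, 282 and 629 FPKM in OP mice against 464, 1445 and 2238 FPKM in OR mice. *Tff3* had 319, 273 and 555 in OP mice against 432, 884 and 1155 in OR mice. In both genes OR mice 2 and 3 were above all other mice, and the overlap came from OP mouse 3, which was above OR mouse 1. Unlike for *Muc2*, OP mouse 2 was among the low mice for these genes. The ratio of *Muc2* to *Zg16* was 2.00 in OP mouse 2 and between 0.0744 and 0.417 in the other mice.

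*Fcgbp* stood at 25.3, 63.7 and 40.9 FPKM in OP mice against 34.7, 153 and 159 FPKM in OR mice. *Clca1*, which encodes a secreted metalloprotease of the mucus, had 64.6, 177 and 71.2 in OP mice against 81.4, 221 and 323 in OR mice. OR mice 2 and 3 were the highest in both genes, and OR mouse 1 lay within the OP values. The highest value was 6.28 times the lowest for *Fcgbp* and 5.0 times for *Clca1*.

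*Spink4* stood at 426, 2327 and 257 FPKM in OP mice against 366, 1643 and 1058 FPKM in OR mice. *Retnlb* had 44.2, 447 and 3.93 in OP mice against 27.3, 172 and 62.4 in OR mice. Both genes were highest in OP mouse 2, followed by OR mouse 2, and lowest in OP mouse 3, so that the extremes both lay in the OP group. *Retnlb* covered the widest range of the 10 genes, with a highest value 114 times the lowest.

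**Figure D1:**
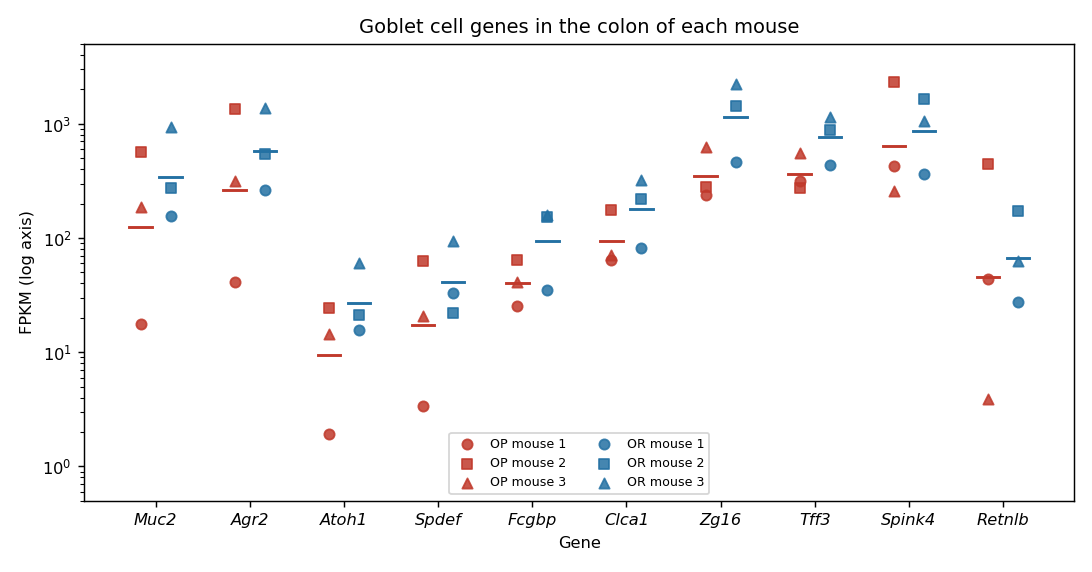
FPKM of each of the 10 genes (log axis) in OP mice (red) and OR mice (blue), with the marker shape giving the mouse number and bars giving the group mean taken on the log2(FPKM + 1) scale. The groups overlap in all 10 genes, and OP mouse 1 is the lowest mouse in 7 of them.

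Mouse by mouse, the genes did not all move as a block. OR mouse 3 was above the mean of the 6 mice in 10 of 10 genes on the log2(FPKM + 1) scale and was the highest mouse in 8. OP mouse 1 was below the mean in 10 of 10 and the lowest in 7. OR mouse 2 was above the mean in 9 genes, OP mouse 2 in 8, OP mouse 3 in 1 and OR mouse 1 in 1. Averaged over the 10 genes, the deviation was -1.74, 0.80 and -0.73 in OP mice 1, 2 and 3 and -0.50, 0.78 and 1.39 in OR mice 1, 2 and 3. A lower FPKM in whole colon tissue can mean fewer goblet cells or less RNA per goblet cell. It can also mean more RNA from other cells or another stretch of colon. These cannot be told apart here.

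**Figure D2:**
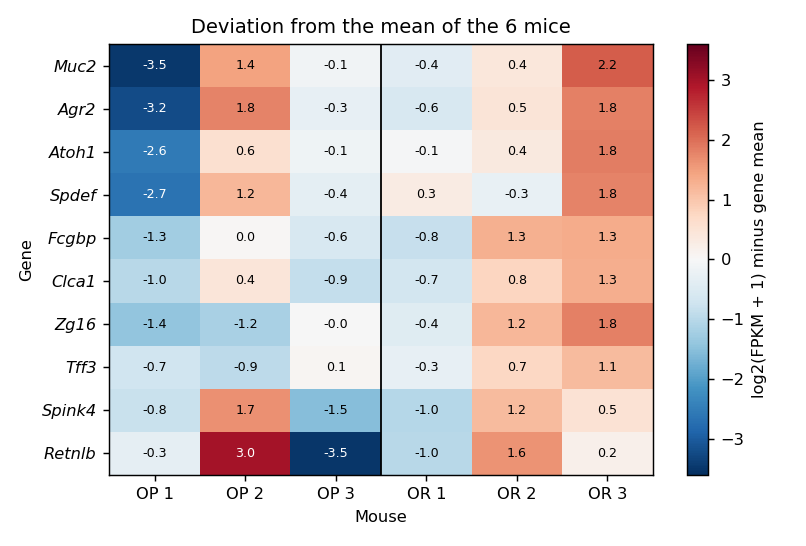
Deviation of each gene (row) in each mouse (column) from the gene's mean over the 6 mice, in log2(FPKM + 1), with OP mice left and OR mice right of the line. OP mouse 1 is blue and OR mouse 3 red in all 10 rows, while OP mouse 2 is 3.00 above the mean for *Retnlb* and 1.16 below it for *Zg16*.

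The spread within the groups was wide compared with other genes. Among the 6728 genes tested with a mean FPKM of at least 10, the median SD within groups was 0.219 on the log2(FPKM + 1) scale. It was 2.48 for *Retnlb*, 2.01 for *Muc2*, 1.97 for *Agr2* and 1.56 for *Spdef*. The smallest was that of *Tff3*, 0.643, which was above the SD of 93.6% of these genes, and all 10 genes lay above the 90th percentile.

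To ask whether goblet cell expression differed between mice prone and resistant to obesity, limma-trend was run on log2(FPKM + 1) of 13520 genes in the OP and OR mice, and calls required a Benjamini-Hochberg q-value under 0.2 together with a fold change outside the range from 0.83 to 1.2. Of the 10 genes, 0 were called, where 0.0222% of all genes tested were called in either direction. The limma-trend q-values of the 10 genes lay between 0.945 and 0.964. Groups that did not overlap were found for 0 of the 10 genes and for 8.44% of all genes tested. The log2 fold change of OP over OR was below 0 in 10 of 10 genes, from -1.72 to -0.44 with a median of -1.17, where 70.1% of all genes tested were below 0 and the median of all genes was -0.10. These 10 values come from the same 6 mice and share their differences, so they are not 10 separate observations.

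*Zg16* and *Tff3* were the 2 of the 10 genes with an unadjusted limma-trend p below 0.05, both lower in OP mice, a threshold passed in that direction by 3.53% of all genes tested. *Zg16* averaged 383 ± 215 FPKM (SD, n = 3) for OP against 1382 ± 888 (SD, n = 3) for OR. On the log2 scale OP over OR came to -1.72 (standard error 0.60, 95% interval -3.13 to -0.30, adjusted p = 0.945 in limma-trend). *Tff3* had 382 ± 151 (SD, n = 3) for OP against 824 ± 366 (SD, n = 3) for OR. On the log2 scale OP over OR came to -1.06 (standard error 0.40, 95% interval -2.01 to -0.11, adjusted p = 0.945 in limma-trend). The two-sided exact permutation test of the log2 means gave p = 0.2 for each of *Zg16* and *Tff3*, where the smallest p that 3 mice against 3 allow is 0.1. When single mice were dropped, the log2 fold change stayed between -2.37 and -1.23 for *Zg16* and between -1.47 and -0.76 for *Tff3*. The unadjusted p of both was below 0.05 without OP mouse 3 or OR mouse 1 and not without OP mouse 1, OP mouse 2, OR mouse 2 or OR mouse 3.

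*Muc2* averaged 256 ± 279 FPKM (SD, n = 3) for OP against 454 ± 419 (SD, n = 3) for OR. On the log2 scale OP over OR came to -1.45 (standard error 1.21, limma-trend adjusted p = 0.945), with a 95% interval from -4.29 to 1.39. The data therefore leave room for a level in OR mice 19.5 times that in OP mice as well as for 0.380 times. Without OP mouse 1 the log2 fold change of *Muc2* was -0.07 and without OP mouse 2 it was -2.53. *Agr2* had -1.14 (95% interval -3.92 to 1.64), and it was 0.18 without OP mouse 1. For *Atoh1* the log2 fold change was -1.43 (95% interval -3.35 to 0.50) and for *Spdef* -1.21 (95% interval -3.43 to 1.01).

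*Fcgbp* had a log2 fold change of -1.21 (95% interval -2.62 to 0.20) and *Clca1* of -0.94 (95% interval -2.25 to 0.38). *Spink4* had -0.44 (95% interval -2.45 to 1.58). *Retnlb* had -0.55 (95% interval -4.05 to 2.96), although its mean FPKM was higher in OP mice, 165 ± 245 against 87.2 ± 75.5 (SD, n = 3 each), because the low value of OP mouse 3 weighs more on the log scale. The direction of *Retnlb* and *Spink4* also turned with the mice used, to 1.07 and 0.21 without OP mouse 3. The 95% intervals of 8 of the 10 genes included 0. The median over the 10 genes was -0.51 without OP mouse 1 and -1.82 without OP mouse 2. Without OP mouse 2 the unadjusted p was below 0.05 for *Agr2*, *Atoh1*, *Clca1* and *Spdef*, with a lowest q-value of 0.772 among the 10 genes. In the expression of all genes, 477 were lower and 68 higher in OP mice at that unadjusted p, and 423 and 153 after median-of-ratios scaling, which moved the median of all genes to 0.01 and that of the 10 genes to -1.04.

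**Figure D3:**
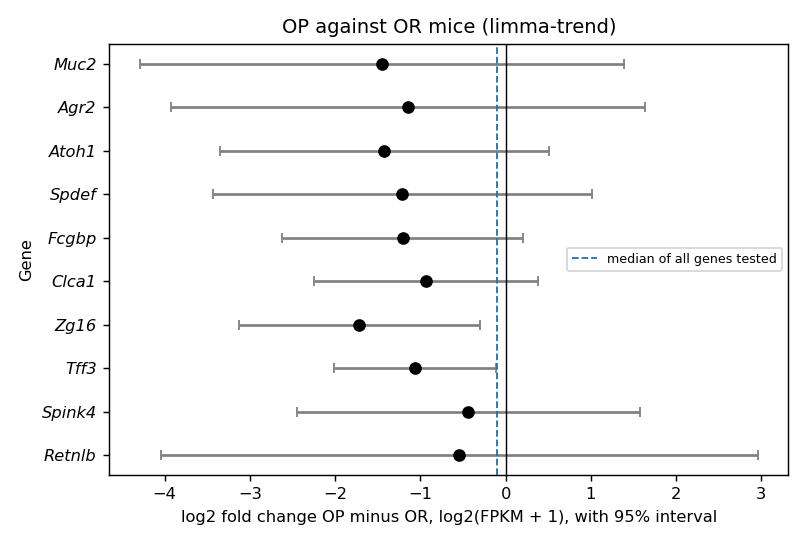
Log2 fold change of OP over OR with its 95% interval from limma-trend for each of the 10 genes on the log2(FPKM + 1) scale, with 0 as a solid line and the median of all genes tested, -0.10, as a dashed line. All 10 points lie below 0, and the intervals of *Zg16* and *Tff3* alone do not reach it.

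Co-variation was measured as the correlation of log2(FPKM + 1) over the 6 mice. Of the 45 pairs of genes, 43 had a Pearson's r above 0, with a median of 0.67 and a range from -0.13 to 0.99, and 9 pairs had an r of at least 0.9. These 9 pairs formed 4 groups, which were described after the values had been seen. *Muc2*, *Agr2*, *Atoh1* and *Spdef* were linked to each other by 6 of the 9 pairs. The other 3 pairs were *Zg16* with *Tff3* (0.99), *Fcgbp* with *Clca1* (0.95) and *Spink4* with *Retnlb* (0.94). The lowest r was that of *Tff3* with *Retnlb*, -0.13. By Spearman's rho the block of *Muc2*, *Agr2*, *Atoh1* and *Spdef* was not set apart. *Spdef* had a rho of 0.83 with *Muc2* and with *Agr2*, whereas *Fcgbp* had 0.94 with both and *Clca1* had 0.94 with *Atoh1*. The pairs *Zg16* with *Tff3*, *Fcgbp* with *Clca1* and *Spink4* with *Retnlb* had a rho of 0.94 or above. Without OP mouse 2 the groups were less separate, with 18 pairs at 0.9 or above, a median of 0.83 and *Tff3* with *Retnlb* at 0.39, and *Spink4* with *Retnlb* was at 0.89. Without OP mouse 1, 5 pairs reached 0.9, the median was 0.65 and the lowest r among *Muc2*, *Agr2*, *Atoh1* and *Spdef* was 0.82. Without any other single mouse 9 or 10 pairs reached 0.9. *Zg16* with *Tff3* stayed at 0.977 or above and *Fcgbp* with *Clca1* at 0.92 or above whichever mouse was left out. After each group's own mean was subtracted, the median r of the 45 pairs was 0.58, with a range from -0.32 to 0.99. All correlations share the same 6 mice and the same scaling by library total.

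**Figure D4:**
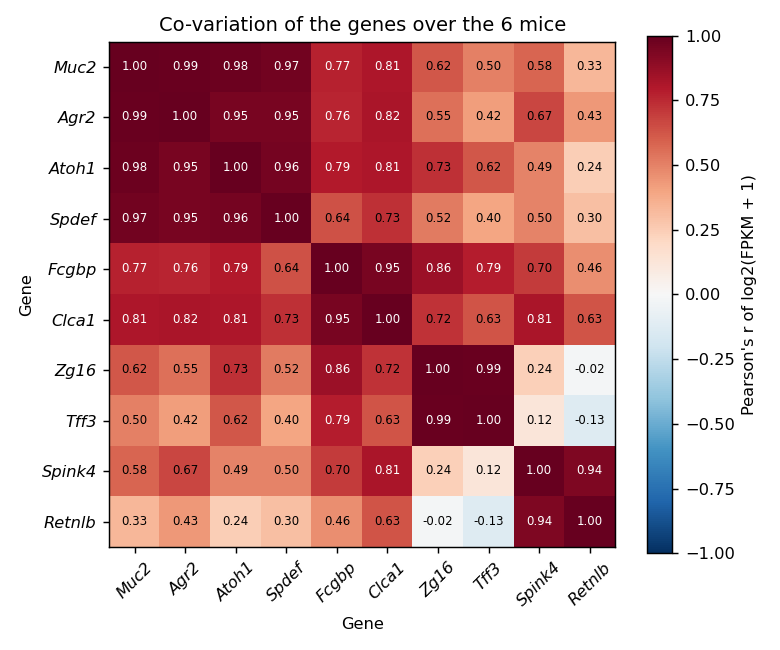
Pearson's r of log2(FPKM + 1) over the 6 mice for each pair of the 10 genes, with genes on both axes in the order of the groups described. The block of *Muc2*, *Agr2*, *Atoh1* and *Spdef* lies between 0.95 and 0.99, and the corner of *Tff3* with *Retnlb* is at -0.13.

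The 9 relations with *Muc2* were tested by exact permutation of the mice. *Agr2* had a Pearson's r of 0.99 (exact permutation p = 0.00139, the smallest that 6 mice allow, adjusted p = 0.0125) and a Spearman's rho of 1 (exact permutation p = 0.00278, adjusted p = 0.025). *Atoh1* had an r of 0.98 (exact permutation p = 0.00278, adjusted p = 0.0125) and a rho of 0.94 (exact permutation p = 0.0167, adjusted p = 0.05). *Spdef* had an r of 0.97 (exact permutation p = 0.00972, adjusted p = 0.0292) and a rho of 0.83 (exact permutation p = 0.0583, adjusted p = 0.105). Without OP mouse 1 and OR mouse 3, the mice farthest from the median of *Muc2*, r was 1.00 for *Agr2*, 0.93 for *Atoh1* and 0.72 for *Spdef* in the remaining 4 mice. An r of at least 0.9 with *Muc2* was reached by 5.44% of the 13520 genes tested, and the median r of all genes with *Muc2* was 0.42.

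The other 6 genes did not pass an adjusted p of 0.05 by Pearson's r. *Clca1* had an r of 0.81 with *Muc2* (exact permutation adjusted p = 0.0625), and on FPKM without the log it passed, with an r of 0.89 (exact permutation adjusted p = 0.0469). *Fcgbp* had 0.77 (exact permutation adjusted p = 0.09). *Zg16* had 0.62, *Spink4* 0.58, *Tff3* 0.50 and *Retnlb* 0.33, with adjusted exact permutation p-values from 0.269 to 0.525. Spearman's rho with *Muc2* was 0.94 for *Fcgbp* (exact permutation adjusted p = 0.05), the same as for *Atoh1*. It was 0.89 for *Clca1* (exact permutation adjusted p = 0.075), above the 0.83 of *Spdef*. For *Zg16*, *Spink4*, *Tff3* and *Retnlb* rho lay between 0.43 and 0.66. The order of *Spdef*, *Clca1* and *Fcgbp* thus depended on the measure. The Pearson's r of *Zg16* and *Tff3* with *Muc2* turned to -0.35 and -0.47 without the mice farthest from the median of *Muc2*. Without OP mouse 2 they were 0.93 and 0.92. They were 0.38 and 0.28 without OP mouse 1 and 0.41 and 0.22 without OR mouse 3, so that each of these 3 mice moved them.

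Other genes of goblet cells were described from a list of 18, of which 14 passed the filter. *Tff1* and *Tff2* did not pass, and *Fam3d* and *Muc5b* were not analysed here. In OP against OR, 11 of the 14 had a log2 fold change below 0 and 3 above, with a median of -0.63, and 0 passed an unadjusted limma-trend p of 0.05 in either direction. Over all genes tested 70.1% were below 0 and the median was -0.10. The 3 with the highest levels were *Dmbt1*, *Klk1* and *Reg4*. *Klk1*, a tissue kallikrein, stood at 87.6, 693 and 390 FPKM in OP mice against 284, 449 and 1549 FPKM in OR mice. It followed *Muc2* with an r of 0.98 over the 6 mice. *Dmbt1*, a secreted scavenger receptor protein, varied little, with between 1113 and 1770. *Reg4*, a lectin of deep crypt secretory cells, had 942 in OR mouse 2 and between 16.1 and 111 in the other 5 mice, whereas OR mouse 2 was the highest mouse in 0 of the 10 genes.

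In the same list, 7 of the 14 genes had an r of at least 0.9 with *Muc2*, and from 6 to 8 when single mice were left out. Of all genes tested 5.44% did, and from 2.03% to 13.2% when single mice were left out. Among them, picked after their values had been seen, *Ern2*, the stress sensor of the endoplasmic reticulum in mucus-secreting cells, stood at 2.10, 27.8 and 13.7 FPKM in OP mice against 11.1, 11.6 and 29.0 FPKM in OR mice. *Sytl2*, a protein of granule docking, had 3.09, 14.9 and 9.50 in OP mice against 6.62, 11.1 and 22.2 in OR mice. OP mouse 1 was the lowest mouse in 10 of the 14 genes and OR mouse 3 the highest in 8.

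Regulators of the secretory lineage other than *Atoh1* and *Spdef* were followed in a list of 17 genes, all of which passed the filter. Of these, 13 had a log2 fold change below 0 and 4 above, with a median of -0.24, and 0 passed an unadjusted limma-trend p of 0.05. The share below 0 was 70.1% over all genes tested, whose median was -0.10. The highest levels were those of *Hnf4a* (285 to 351), *Klf4* (155 to 376) and *Xbp1* (59.4 to 118). *Klf4*, a zinc finger factor of goblet cells and surface epithelium, had an r of 0.23 with *Muc2*, and *Xbp1*, a regulator of secretory capacity, had 0.90. *Creb3l1*, *Creb3l4*, *Cbfa2t3*, *Foxa3* and *Gfi1* also had an r of at least 0.9, which made 6 of the 17 genes, but 3 without OP mouse 1 and 2 without OR mouse 3. Of all genes tested 5.44% had such an r, 2.03% without OP mouse 1 and 7.25% without OR mouse 3. *Creb3l1*, a membrane-bound factor of secretory cells named after its values had been seen, had 4.24, 72.6 and 30.3 in OP mice against 32.3, 30.5 and 75.1 in OR mice. In OP mouse 1 it lay far below all other mice, as *Muc2* did. *Hes1*, the Notch target that represses *Atoh1*, had 31.6, 39.0 and 66.5 in OP mice against 56.8, 31.0 and 28.9 in OR mice and was likewise named after its values had been seen.

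Enzymes and sugar transporters of mucin O-glycosylation, which build the sugar chains of MUC2, were followed in a list of 28 genes, of which 27 passed the filter. The log2 fold change was below 0 in 21 and above 0 in 6, with a median of -0.17, and 0 passed an unadjusted limma-trend p of 0.05. Of all genes tested 70.1% were below 0, with a median of -0.10. After median-of-ratios scaling the median of this list was -0.03. The 3 with the highest levels were *B4galnt2*, *St6galnac6* and *St3gal4*. *B4galnt2*, which makes the Sda sugar epitope of the colon, stood at 526, 167 and 364 FPKM in OP mice against 295, 426 and 290 FPKM in OR mice, with an r of -0.71 with *Muc2*. *St3gal4*, a sialyltransferase, had 125, 323 and 125 in OP mice against 281, 72.8 and 74.9 in OR mice. Levels of *St6galnac6* were between 135 and 440. An r of at least 0.9 with *Muc2* was found for 5 of the 27 genes, and for 6 to 10 when single mice were left out. The share of all genes tested was 5.44%, and from 2.03% without OP mouse 1 to 13.2% without OR mouse 1. The 5 were *Galnt5*, *Galnt7*, *Galnt10*, *Fut4* and *Chst4*, and *Galnt5*, an enzyme that adds the first sugar, had the widest range of these, from 0.26 in OP mouse 1 to 7.57 in OR mouse 3.

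Cytokines that can induce *Retnlb* and *Clca1* were listed at or near 0, whereas most of their receptors were well above the filter. Of the list of 12, *Il4* was not analysed here, and *Il13*, *Il22*, *Il25* and *Il13ra2* did not pass the filter. *Il13* had an FPKM of 0.14 in OR mouse 1 and 0.13 in OR mouse 2 and was listed at 0 in the other 4 mice. The receptor chains *Il4ra*, *Il13ra1* and *Il22ra1*, named after their values had been seen, had 10.2 to 17.3, 19.5 to 29.2 and 14.9 to 34.1 FPKM over the 6 mice. *Stat6*, the factor downstream of the chains *Il4ra* and *Il13ra1*, had between 33.7 and 51.9. *Il10rb*, a receptor chain shared by IL-10 and IL-22, had between 57.6 and 74.8, and *Stat3* had between 30.9 and 39.2. *Il33*, an alarmin of stromal and epithelial cells, was the gene of the list with an unadjusted limma-trend p below 0.05, with 0.72, 1.16 and 0.68 in OP mice against 2.61, 1.67 and 2.13 in OR mice. On the log2 scale OP over OR came to -0.76 (standard error 0.20, adjusted p = 0.798 from limma-trend).

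Markers of other cells were set beside these results. The 15 epithelium markers summed to an FPKM between 13826 and 17694 for OP and between 14125 and 16691 in OR mice, a range of 1.28 times over the 6 mice, and *Epcam* had between 935 and 1188. The widest range of a single marker was that of *Krt18*, 4.21 times, from 103 in OP mouse 1 to 435 in OP mouse 2. *Krt18* had an r of 0.92 with *Muc2*, whereas the median r of the 15 markers with *Muc2* was -0.41. The 53.1-fold range of *Muc2* was therefore not matched by these markers, and the ratio of *Muc2* to *Epcam* ranged 59.2-fold. When each mouse was centred on the epithelium markers, 0 of the 10 genes were called, their median log2 fold change was -1.25, and *Zg16*, *Tff3*, *Fcgbp* and *Clca1* had an unadjusted limma-trend p below 0.05. Of the 12 absorptive colonocyte markers, 10 had a log2 fold change above 0 and 2 below, with a median of 0.44. Their summed FPKM was 27444 in OP mouse 1 and 24713 in OR mouse 2 and between 11472 and 13214 in the other 4 mice. In OP the sums lay between 11472 and 27444 and in OR between 12228 and 24713, and 1 of the 12, *Ceacam20*, was higher in OP with an unadjusted limma-trend p of 0.00618 (adjusted p = 0.805). *Car1* alone made up 14584 of the sum in OP mouse 1 and 15723 in OR mouse 2. The mean deviation of the 12 markers on the log2(FPKM + 1) scale, which gives each gene the same weight, was 0.67, 0.42 and -0.26 in OP mice 1, 2 and 3 and -0.46, 0.26 and -0.64 in OR mice 1, 2 and 3. The part of these markers in the results for the 10 genes was not tested.

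The summed markers of other secretory cells followed different orders of the mice. OP mouse 1 was still the lowest mouse in 8 of the 10 enteroendocrine markers and in 4 of the 7 tuft cell markers tested. The 10 enteroendocrine markers summed to 129, 407 and 731 for OP mice 1, 2 and 3, against 421, 184 and 318 in the OR mice, with 0 of 10 at an unadjusted limma-trend p below 0.05. The 8 tuft cell markers, of which 7 passed the filter, summed to 28.1, 46.7 and 74.4 in OP mice against 50.6, 24.3 and 44.5 in OR mice. The lowest sum was that of OP mouse 1 for enteroendocrine and that of OR mouse 2 for tuft cell markers, and the highest of both was that of OP mouse 3, in which 9 of the 10 goblet cell genes were below their mean. Of 9 Paneth cell markers, 5 were analysed, with *Lyz1* between 4.37 and 21.1 and *Defa24* at 0 in 5 of the 6 mice.

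Among markers of the tissue under the epithelium, those of fibroblasts were lower in OP mice at the unadjusted threshold. Of the 10 fibroblast markers, 10 had a log2 fold change below 0, with a median of -0.89, and 8 had an unadjusted limma-trend p below 0.05 but none was called. Over all genes tested 70.1% were below 0, and 3.53% were lower in OP at that unadjusted p. The sums of the fibroblast markers lay between 120 and 217 for OP and between 312 and 563 in OR mice. They were highest in OR mouse 3, the mouse with the highest *Muc2*, and lowest in OP mouse 2, the mouse with the second highest. OP mouse 1, with the lowest *Muc2*, had a sum of 166. The median r of the 10 markers with *Muc2* was 0.39. *Dcn* had the largest log2 fold change of the 8, -2.03 (standard error 0.39, adjusted p = 0.624 in limma-trend), with 27.9, 17.4 and 40.8 in OP mice against 81.1, 95.5 and 191 in OR mice. Of the 10 leukocyte markers, 3 were lower in OP with an unadjusted limma-trend p below 0.05, and their sums lay between 128 and 426 for OP and between 275 and 330 in OR mice. *Jchain*, a plasma cell gene, had 48.8, 41.6 and 91.1 in OP mice against 120, 130 and 154 in OR mice. Of the 10 smooth muscle markers 0 passed an unadjusted limma-trend p of 0.05, with sums between 1576 and 2422 for OP and between 1934 and 3520 in OR mice. Whether the amount of underlying tissue in the samples had a part in the goblet cell values was not tested.

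Position along the gut was followed with 9 posterior Hox genes, of which 5 passed the filter, and 11 genes of absorptive cells of the small intestine. *Hoxa13* had an FPKM of 29.5 in OP mouse 2 and between 0.27 and 3.58 in the others. *Hoxd9* went the other way, as *Hoxd10* did, with 0.18 in OP mouse 2 and between 3.45 and 5.49 in the others. *Slc10a2*, the bile acid transporter of the ileum, had 1.03 in OP mouse 2 and between 37.1 and 88.8 in the others. *Fabp2* and *Slc5a1*, also among the highest of the small intestine genes, had 1017 and 47.1 in OP mouse 2, within the values of the others. OP mouse 2, which stood apart in *Hoxa13*, *Hoxd9* and *Slc10a2*, had the highest *Retnlb* and *Spink4* and the lowest *Tff3*. It also had the second highest *Muc2*, *Agr2*, *Spdef* and *Atoh1*. The ratio of *Retnlb* to *Zg16* was 1.58 in OP mouse 2 and between 0.00625 and 0.187 in the other mice. These are the values of 1 mouse, and whether position along the gut had a part in them was not tested. Of the genes of the small intestine, *Lct* did not exceed 0.05, and *Alpi*, an alkaline phosphatase, was higher in OP with an unadjusted limma-trend p of 0.0158 (adjusted p = 0.945). Of the posterior Hox genes 0 passed that threshold.

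**Figure D5:**
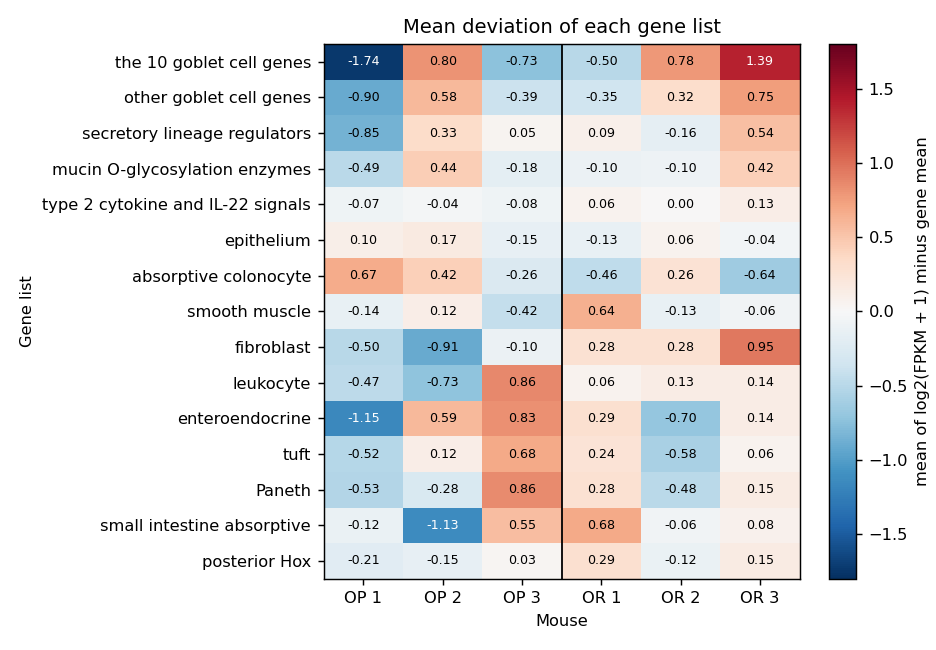
Mean deviation from the gene means, in log2(FPKM + 1), of the 10 goblet cell genes and of 14 other gene lists (rows, genes that passed the filter) in each of the 6 mice (columns). The goblet cell genes range from -1.74 in OP mouse 1 to 1.39 in OR mouse 3, the epithelium markers from -0.15 to 0.17.

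Among the 9014 other genes with a mean FPKM of at least 5, those most like the mean standardised profile of the 10 genes over the 6 mice were *A4gnt*, *Tmx1*, *Grwd1*, *Ppp1ca*, *Tor3a*, *Pgam5*, *Rep15* and *Lrrc59*, with a Pearson's r between 0.98 and 1.00, and of at least 0.956 whichever mouse was left out. An r of at least 0.9 with this profile was reached by 180 of the 9014, and with 6 mice such values are given as a description only. *A4gnt*, which encodes a glycosyltransferase of gland mucins, stood at 0.65, 9.87 and 2.46 FPKM in OP mice against 2.97, 10.6 and 18.5 FPKM in OR mice. *Rep15*, a Rab-binding protein that is also in the list of other goblet cell genes, had 2.07, 14.6 and 8.37 in OP mice against 6.82, 15.9 and 35.8 in OR mice. *Tmx1*, a disulphide oxidoreductase of the endoplasmic reticulum membrane, had the same order of mice as *A4gnt* within 29.5 and 37.2, a range of 1.26 times. The 10 genes themselves had an r with the profile from 0.51 for *Retnlb* to 0.97 for *Clca1*.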

How the data were processed

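Colon RNA of 3 OP and 3 OR mice was measured by RNA sequencing. According to the methods, strand-specific mRNA libraries were run on DNBSEQ, SOAPnuke removed poor reads, and Bowtie2 alignments to a gene set were turned into expression levels by RSEM; per the labels the versions were Bowtie2 2.2.5 and RSEM 1.2.12, the methods give others, and the submitters' processing notes also name HISAT2 2.0.4 and GRCm39. The authors deposited FPKM values to 2 decimals, 1 column per mouse, from which depth cannot be recovered: RSEM estimates need not be whole reads, and 7048 values lay between 0 and 0.1, where the rounding is coarse. No column was left out. Samples were grouped from their labels.

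The 13520 genes that reached 0.5 FPKM in 3 or more mice were compared on log2(FPKM + 1) with limma-trend of limma 3.58.1 under R 4.3.3. The model held the group alone, and q-values were adjusted over all genes after Benjamini-Hochberg. DESeq2, the authors' tool, needs counts and was not run. The limma test was tested on simulated data. Permutation tests were exact and two-sided (SciPy 1.17.1 and NumPy 2.4.6), on log2(FPKM + 1). The 10 genes and the 14 other lists were chosen with earlier results of these data known. Beside the 10 genes, those named are, from each list, up to 4 with the lowest unadjusted p below 0.05 and the 3 with the highest mean FPKM, and the 8 genes most like the profile of the 10; any other gene was named after its values were seen. Some genes of that rule are given only in the counts of their lists. Alternatives were limma without trend, 3 other scalings, a pseudocount of 0.1, other filters, array weights, a block for replicate numbers, omission of single mice and, for correlations, other scales.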

Additional observations from a re-analysis of the deposited data

How the results depend on the processing

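Leaving out each mouse from all correlations was added after seeing the data. Of the 10 goblet cell genes, 0 were called under every alternative run. The number with a log2 fold change below 0 was 10, 8 with array weights and from 8 to 10 with each mouse left out. Their median of -1.17 lay between -1.82 and -0.51 when single mice were dropped and was -0.65 with array weights and -1.25 with epithelial marker scaling. The count lower in OP mice at an unadjusted p below 0.05 was 2. Median-of-ratios scaling gave 1, and it was 4 with epithelial marker scaling, and from 0 to 4 with each mouse left out: 0 without OP mouse 1, OR mouse 2 or OR mouse 3 and 4 without OP mouse 2 or OR mouse 1. Directions turned for *Spink4* and *Retnlb* with array weights (0.31 and 0.62), without OP mouse 3 (0.21 and 1.07) and without OR mouse 2 (0.03 and 0.13), and for *Agr2* without OP mouse 1 (0.18), the other end of their ranges being -1.37, -2.18 and -2.32, all without OP mouse 2. The cause was not tested.

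With the replicate block, the paired fit, 5 of the 10 genes had an unadjusted p below 0.05 and 0 of all genes were called lower in OP mice. The numbers in the labels do not pair the mice: the deviations of same-numbered mice from their group means had correlations from -0.16 to 0.07, and those of other OP and OR mice from -0.46 to 0.54.

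Of all genes, 3 were called lower in OP mice. The count was 0 with median-of-ratios scaling, TPM scaling, epithelial marker scaling, a pseudocount of 0.1, no filter on low values and at least 1 in all 6 mice, 5 with array weights, and from 0 to 1 with each mouse left out. Higher genes with an unadjusted p below 0.05 numbered 68, and 153 with median-of-ratios scaling, 31 with epithelial marker scaling, 133 without the filter, 146 with array weights and from 24 to 181 with each mouse left out. Lower genes numbered 477, and 317 with at least 1 in all 6 mice and from 231 to 1104 with each mouse left out.

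Of the 9 relations with *Muc2*, 3 passed an adjusted p of 0.05, 1 by Spearman's rho and 4 on FPKM without the log, where *Clca1* was added (0.89, adjusted p = 0.0469). Without OP mouse 1 and OR mouse 3, *Zg16* and *Tff3* turned to -0.35 and -0.47. Pairs of the 10 genes with an r of at least 0.9 numbered 9, and from 5 to 18 with each mouse left out. With each mouse left out the r with *Muc2* stayed between 0.97 and 1.00 for *Agr2*, 0.93 and 1.00 for *Atoh1* and 0.88 and 0.99 for *Spdef*; with 5 mice the smallest exact permutation p is 0.00833, so these fits hardly allow an adjusted call.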
